A study of Homo sapiens with 6 samples.

Results

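The MYC and MAX network was examined in SW480 cells, an established line from a human colon adenocarcinoma, with and without depletion of RBM39, a splicing factor that binds RNA. The genes were chosen by name: MYC, MAX, MXD1, MXD3, MXD4, MXI1, MNT, MGA, MLX and MLXIP, 10 of the 56303 gene symbols in the count table, and all 10 were among the 18243 genes with enough counts to be tested. mRNA was sequenced from cells that carried a non-silencing hairpin (shCtrl, 3 libraries) or a hairpin against RBM39 (shRBM39, 3 libraries). According to the study's methods, hairpins were delivered by lentivirus and stable lines, called clonal there, were selected with puromycin, so both groups share virus and drug. The methods describe the 3 libraries of a group as replicate experiments but do not give the number of lines behind them, and p-values measure the spread between these libraries.

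MYC is a basic helix-loop-helix leucine zipper protein that binds E-box DNA only as a dimer with MAX and activates genes of ribosome biogenesis, metabolism and the cell cycle. The MXD proteins (MXI1 is one of them), MNT and MGA compete with MYC for MAX and repress from the same sites, while MLX pairs with MLXIP (MondoA) or MLXIPL (ChREBP) to regulate genes that respond to glucose, and also with some MXD proteins and MNT. In colon carcinoma MYC is known as a target gene of the Wnt and beta-catenin pathway.

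Library sizes ran from 18042924 to 20428901 counts. RBM39 mRNA, the check of the labels, fell from 441 ± 6.53 to 278 ± 13.3 CPM (SD, n = 3; CPM, counts scaled to the library with TMM factors), and the groups did not overlap. Replicates of a group differed by more than sampling noise (chi-square over degrees of freedom between 2.11 and 4.21). Of 8 colon epithelial markers, the keratin genes KRT8 and KRT18 led a summed level of 10812 to 11567 CPM in shCtrl and 13812 to 14356 CPM in shRBM39. Of the 6 that could be tested, 2 were called higher and 3 lower, where 29.2% and 29.9% of all genes tested were. CDX1 was near the limit of detection, with 1, 2 and 0 counts in shCtrl and 0 in each shRBM39 library, LGALS4 stayed under 0.3 CPM on average in both groups, and CDX2 was lower in shRBM39 by a log2 fold change of -2.13. Markers of blood, stroma, endothelium and liver (8 genes) summed to 10.6 to 11.8 CPM in shCtrl and 17.1 to 20.6 CPM in shRBM39, with PTPRC at 0 in every library. Of the 4 of these that could be tested, 3 were called higher (COL1A1, PECAM1 and VWF), and the part of these markers in the results was not tested.

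MYC, MXD4 and MXI1 mRNA fell by 48.7%, 44.1% and 44.4% in shRBM39, MLX, MXD3 and MGA gained smaller amounts, and MAX, MXD1, MNT and MLXIP did not pass the test. Called here means below 0.05 in adjusted p, from the quasi-likelihood test of edgeR adjusted over all genes. Of the 10 members, 3 were called higher and 3 lower. Scaling moved this split, to 2 higher and 6 lower under library totals alone and to 1 higher and 6 lower in both fits on log2 RPKM. All 18243 genes tested moved likewise, to 3775 higher and 7371 lower under library totals alone. On log2(RPKM + 1) they were 3530 and 6981, and on log2(RPKM + 0.1) 3535 and 6984. With TMM factors, 59.1% of all genes tested were called, 29.2% as higher and 29.9% as lower, so a call by itself did not set these genes apart. The median log2 fold change of the members was -0.05, against -0.01 over all genes tested. The CPM values of shCtrl and shRBM39 did not overlap for 6 of the 10 members, where 63.3% of all tested genes showed no overlap. A test against an absolute log2 fold change of 0.5 called 12.2% of all genes, 5.65% as higher and 6.58% as lower. This stricter test called 3 members, MYC, MXD4 and MXI1, all of them lower.

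**Figure D1:**
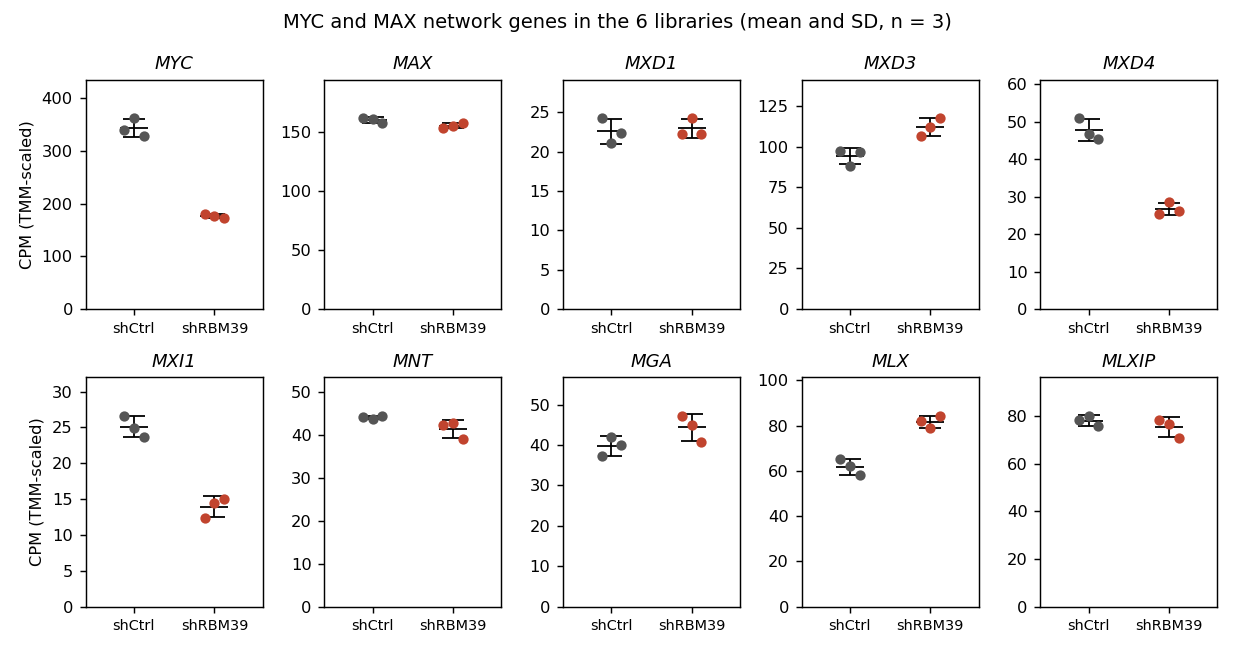
Expression of the 10 members in each library, in CPM scaled by TMM factors (vertical axes start at 0), with shCtrl in grey and shRBM39 in red. Points are libraries and the black marks are the mean and SD of 3 libraries. MYC, MXD4 and MXI1 separate widely downward in shRBM39, whereas the points of MAX, MXD1 and MLXIP lie at similar heights in both groups.

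MYC (chromosome 8, 127735434 to 127741434, plus strand, GRCh38) had 6852, 7706 and 6682 counts in the shCtrl libraries and 3540, 3036 and 3338 in the shRBM39 libraries. Scaled to the library, these were 340, 363 and 329 CPM against 181, 176 and 172 CPM. Every shRBM39 library thus lay far below every shCtrl library, and the 3 shRBM39 values were close together. MYC mRNA fell by 48.7%, a log2 fold change of -0.96 with a 95% interval from -1.04 to -0.88 and an edgeR adjusted p of 1.46e-20. Of all genes tested, 4.58% had a log2 fold change at or below that of MYC. In bulk RNA, fewer cells with high MYC and less MYC RNA per cell cannot be told apart. The counts carry no information on MYC protein, whose level also depends on its degradation.

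MYCN and MYCL, the other MYC family genes that pair with MAX, moved in opposite directions from much lower levels. MYCN had 18, 23 and 15 counts in shCtrl and 52, 47 and 62 in shRBM39, with no overlap. Its log2 fold change was 1.65 with a 95% interval from 1.22 to 2.09 (edgeR adjusted p 3.92e-08). At such low counts the value depended on the scale, and it was 0.59 on log2(RPKM + 1). MYCL had 101, 102 and 109 counts against 38, 46 and 47, a log2 fold change of -1.11 (95% interval from -1.42 to -0.81, edgeR adjusted p 9.07e-08), and -0.50 on log2(RPKM + 1). Per exon length, MYC made up 98.8% ± 0.0474 of the summed RPKM (reads scaled to exon length and library total) of MYC, MYCN and MYCL in shCtrl and 97.4% ± 0.307 in shRBM39 (SD, n = 3). The rise of MYCN therefore left MYC as nearly all of the family's mRNA in both groups.

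MAX (chromosome 14, 65006174 to 65102695, minus strand), the shared partner of the network, had 162, 162 and 158 CPM in shCtrl and 154, 156 and 158 CPM in shRBM39. The highest shRBM39 library lay just above the lowest shCtrl library, so the groups overlapped. The log2 fold change of MAX was -0.04 with a 95% interval from -0.12 to 0.03 (edgeR adjusted p 0.319). Under scaling by library totals alone, MAX, MNT and MLXIP were called lower, at -0.17, -0.22 and -0.18, and likewise on log2(RPKM + 1), at -0.16, -0.18 and -0.15, but library totals also moved the median of all genes by -0.12.

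Because MYC fell and MAX was not called, their ratio within each library was computed, which no library scaling can alter. MYC exceeded MAX in RPKM by a ratio of 3.09, 3.32 and 3.07 in the shCtrl libraries and of 1.73, 1.67 and 1.61 in the shRBM39 libraries. The mean ratio was 3.16 ± 0.136 in shCtrl and 1.67 ± 0.062 in shRBM39 (SD, n = 3), with no overlap. An exact permutation test of 3 against 3 cannot go below a two-sided p of 0.1, so none is given for such ratios. Against the summed RPKM of the 6 members that oppose MYC (MXD1, MXD3, MXD4, MXI1, MNT and MGA), MYC stood at 2.78 ± 0.22 in shCtrl and 1.49 ± 0.0824 in shRBM39 (SD, n = 3). That sum itself was 43.0 ± 1.18 RPKM in shCtrl and 37.7 ± 1.154 RPKM in shRBM39 (SD, n = 3), a smaller relative difference than that of MYC. RPKM is scaled to library totals, which moved the median log2 fold change of all genes by -0.12. The difference of the sum between the groups therefore depends on the scaling. MXD3 was the largest part of the sum, at 19.0 RPKM in shCtrl and 20.8 RPKM in shRBM39. The level of MXD3 is uncertain, because it shares exon bases with other genes, and so are the sum and its ratio. Within the sum, MXD4 and MXI1 fell by 44.1% and 44.4%.

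The order of levels per exon length is a description of abundance among the members. In shCtrl it ran from MYC (119 ± 6.58 RPKM) through MAX (37.8 ± 0.489), MXD3 (19.0 ± 0.888), MLX (15.1 ± 0.79) and MXD4 (7.04 ± 0.375) to MLXIP, MXI1, MNT, MXD1 and MGA (SD, n = 3). The last of these, MGA, had 2.35 ± 0.164 RPKM (SD, n = 3). MLXIP (5.85 RPKM) and MXI1 (5.67 RPKM) were the only neighbours in this order whose libraries overlapped. In shRBM39 the first 4 places were unchanged, with MYC at 56.3 ± 1.4 RPKM and MAX at 33.6 ± 0.443 RPKM (SD, n = 3). MXD4 moved from place 5 to place 7, at 3.62 ± 0.21 RPKM, where it overlapped MXD1 (3.46 ± 0.166 RPKM), and MXI1 moved from place 7 to place 9, at 2.90 ± 0.29 RPKM (SD, n = 3).

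**Figure D2:**
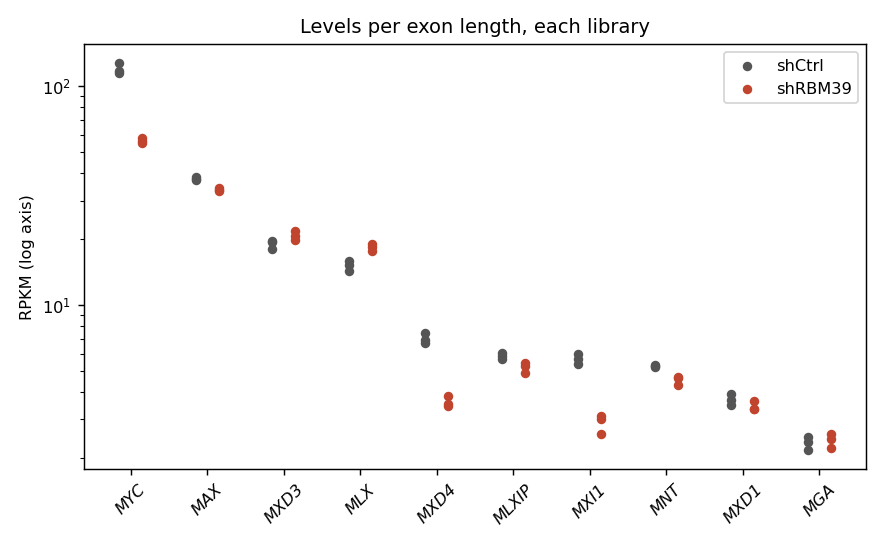
RPKM of the 10 members in each library on a log axis, ordered by the mean in shCtrl (grey, left of each pair; shRBM39 in red, right). MYC is the highest in both groups, and the distance from MYC to MAX is smaller in shRBM39, with mean ratios of 3.16 and 1.67.

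The MXD genes encode repressors that dimerise with MAX and themselves recruit SIN3 and histone deacetylases. Members of this family moved apart from each other. MXD4 (chromosome 4, 2247432 to 2262294, minus strand) had 51.0, 46.7 and 45.3 CPM in shCtrl and 25.5, 28.5 and 26.1 CPM in shRBM39. It fell by 44.1%, a log2 fold change of -0.84 (SE 0.06, edgeR adjusted p 8.09e-15). MXI1 (chromosome 10, 110207605 to 110287365, plus strand), also known as MXD2, had 26.6, 24.9 and 23.7 CPM in shCtrl and 12.4, 14.5 and 15.02 CPM in shRBM39. Its mRNA fell by 44.4%, a log2 fold change of -0.85 (SE 0.07, edgeR adjusted p 5.86e-12). For both genes the lowest shCtrl library was above the highest shRBM39 library by a wide margin.

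MXD3 (chromosome 5, 177301461 to 177312757, minus strand) had 97.2, 88.3 and 96.6 CPM in shCtrl and 106, 112 and 118 CPM in shRBM39. The groups did not overlap, and the log2 fold change was 0.25 (SE 0.04, edgeR adjusted p 9.8e-06). On log2 RPKM, MXD3 was not called, with 0.12 and 0.13. Of its exon bases in the count table, 22.5% also belonged to PRELID1 on the opposite strand and 18% to RAB24 on the same strand, and the strand setting of the counting is not given in the sources used here, so its level is uncertain. MXD1 (chromosome 2, 69897688 to 69942945, plus strand) had 24.3, 21.2 and 22.3 CPM in shCtrl and 22.3, 24.3 and 22.3 CPM in shRBM39. These values overlapped almost fully, and the log2 fold change was 0.02 with a 95% interval from -0.11 to 0.16.

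MNT and MGA are larger MAX partners. MNT uses SIN3 corepressors as the MXD proteins do, whereas MGA acts in a Polycomb complex. MNT (chromosome 17, 2384060 to 2401118, minus strand) had 44.3, 43.8 and 44.6 CPM in shCtrl and 42.4, 42.9 and 39.2 CPM in shRBM39. Its groups did not overlap, but the difference was small, a log2 fold change of -0.09 with a 95% interval from -0.19 to 0.01, and it did not pass the test (edgeR adjusted p 0.106). MGA (chromosome 15, 41621224 to 41773081, plus strand), which also carries a T-box domain, had 37.3, 42.1 and 39.9 CPM in shCtrl and 47.3, 45.02 and 40.8 CPM in shRBM39. Here the groups overlapped, and the log2 fold change was 0.16 (SE 0.06, edgeR adjusted p 0.0144). The call of MGA was lost at 0.12 without shCtrl replicate 1, at 0.11 without shRBM39 replicate 1 and at 0.15 without shRBM39 replicate 2. It was also lost under upper-quartile scaling at 0.12, under library totals alone at 0.03, and on log2 RPKM at 0.02 and 0.03, while the correction for GC content and gene length raised it to 0.31.

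MLX and its partners form the glucose-responsive arm of the network. MLX (chromosome 17, 42567068 to 42573239, plus strand) had 65.3, 61.9 and 58.1 CPM in shCtrl and 81.9, 79.1 and 84.4 CPM in shRBM39. Every shRBM39 library was above every shCtrl library, and MLX rose by 32.4%, a log2 fold change of 0.41 (SE 0.05, edgeR adjusted p 2.44e-09). MLX shared 18.1% of its exon bases with PSMC3IP on the opposite strand, and reads from the pair can only be told apart by strand. PSMC3IP had 1304 to 2360 counts per library. With the strand setting of the counting not given, the level of MLX is uncertain. MLXIP (chromosome 12, 122078722 to 122147347, plus strand) had 78.5, 80.1 and 75.6 CPM in shCtrl and 78.4, 76.8 and 70.7 CPM in shRBM39. The groups overlapped, and its log2 fold change was -0.05 with a 95% interval from -0.14 to 0.04.

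MLXIPL, the other MLX partner, was not among the 10 and had 453, 488 and 436 counts in shCtrl and 199, 149 and 175 in shRBM39. It fell by 58.3%, a log2 fold change of -1.26 (SE 0.08, edgeR adjusted p 8.1e-16). Within libraries, the ratio of MLX to MLXIP in RPKM was 2.72, 2.52 and 2.51 in shCtrl and 3.41, 3.36 and 3.90 in shRBM39. The counts of MLX were thus higher both in themselves and relative to MLXIP, while MLXIPL was lower. The ratio rests on the same MLX reads and shares the uncertainty from the overlap with PSMC3IP.

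**Figure D3:**
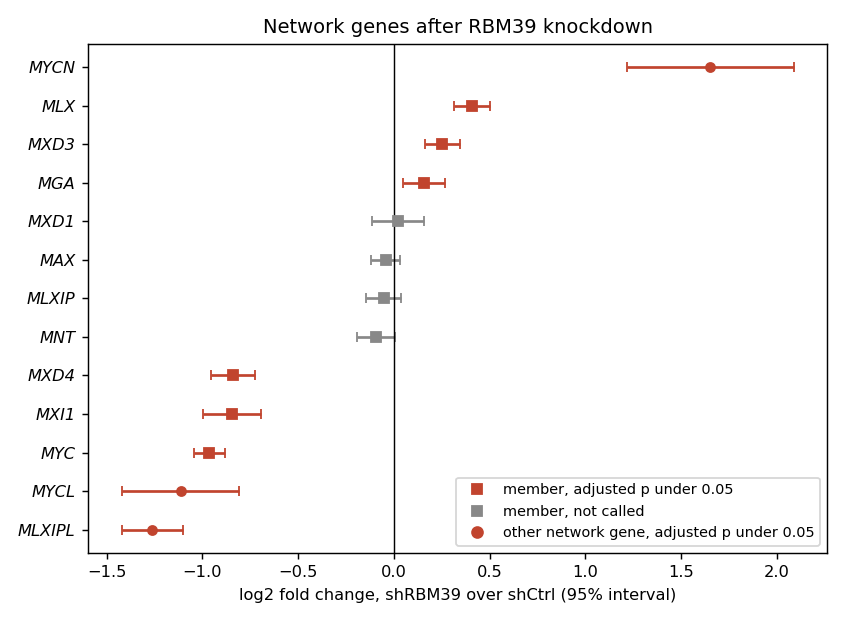
Log2 fold change of shRBM39 over shCtrl with its 95% interval from edgeR, for the 10 members (squares) and for MYCN, MYCL and MLXIPL (circles), red where the adjusted p was under 0.05. MYC, MXD4 and MXI1 lie between -0.96 and -0.84, the intervals of MAX, MXD1, MNT and MLXIP include 0, and MYCN lies at 1.65.

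Splicing of the members was read from the authors' rMATS table, which lists events that passed a p-value and a difference in inclusion level and calls its sides group 1 and group 2 without saying which of them is the knockdown. It lists 4.98% of all events tested and 4.76% of the skipped-exon events. Of the 10 members, MAX had 1 record and the other 9 had none, which says only that no event of theirs was listed. The MAX record is a skipped exon of 27 bases or 9 codons at chr14:65101546-65101572 on the minus strand of GRCh38, exon 2 of 5 of the canonical transcript in GENCODE v44. All of its bases are coding there, and 7 of 13 protein-coding MAX transcripts contain it. MAX protein is known in a long and a short form that differ by a short insertion ahead of the basic region. The exon is printed because it is the listed splicing difference of the network, in capitals between 30 bases of intron on each side (chr14:65101516-65101602), which end in AG before it and begin with GT after it.
MAX exon 2: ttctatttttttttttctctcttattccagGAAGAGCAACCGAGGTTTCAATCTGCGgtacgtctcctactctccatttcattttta

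In group 1 the inclusion and skipping reads of this exon were 194 and 197, 136 and 166, and 176 and 168. In group 2 they were 156 and 281, 165 and 301, and 145 and 265. Corrected for the lengths of both forms, the inclusion level was 0.449, 0.404 and 0.465 in group 1 and 0.315, 0.312 and 0.312 in group 2. The lowest group 1 library lay above the highest group 2 library, and the group 2 libraries were nearly identical. The mean inclusion level was 0.439 ± 0.0314 in group 1 and 0.313 ± 0.0017 in group 2 (SD, n = 3), a difference of 0.126. The record was listed by the authors for its difference, so no test is given here. At least 302 reads stood behind each level. The mean reads per library of a skipped-exon record had a median of 17 over all such records. Of the listed skipped exons, 27.4% had the higher mean level in group 1, as the MAX exon did.

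**Figure D4:**
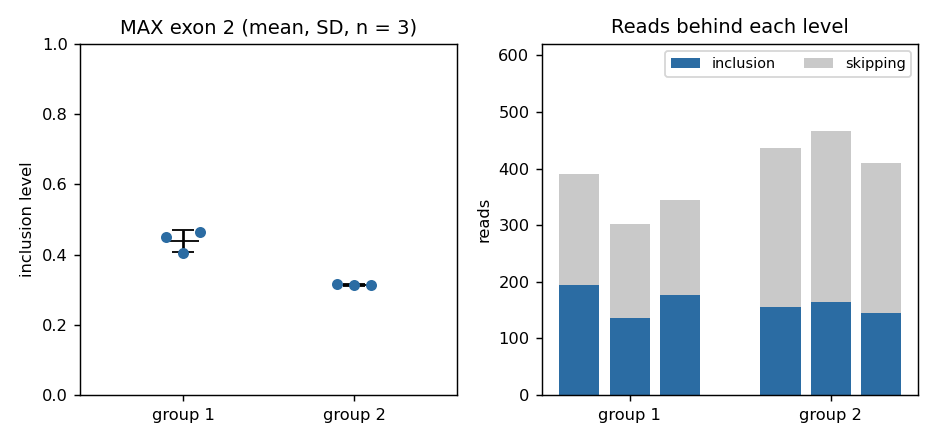
Left, inclusion level of MAX exon 2 in the 3 libraries of group 1 and of group 2 of the authors' splicing table, with mean and SD. Right, inclusion reads (blue) and skipping reads (grey) in the same libraries, stacked from 0, so that the bars show the 302 to 466 reads behind each level.

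To see what surrounds the members, 154 further genes were grouped by role: the other network genes above and 8 lists. A few genes stand in more than 1 list: NCL, CBX3 and PLK1 each also count as MYC targets. Among 18 cofactors that MYC uses to activate genes, 12 were called higher (66.7%) and 4 lower (22.2%), with a median log2 fold change of 0.16. Over all genes tested, 29.2% were called higher and 29.9% lower, with a median of -0.01. ACTL6A, an actin-like subunit of chromatin remodelling complexes, was higher at 341 ± 8.03 against 228 ± 4.67 CPM (SD, n = 3), with a log2 fold change of 0.58. The acetyltransferase genes KAT2A and KAT5 were higher by 0.46 and 0.42. EP400 and BPTF were lower by -0.24 and -0.18, and both lost their call after a correction for GC content and gene length, at -0.09 and -0.04. Under library totals alone, 6 cofactor genes were called higher and 4 lower, with a median of 0.04, where that of all genes tested was -0.14.

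The corepressors of the MXD and MNT proteins, with the MYC partner ZBTB17 (MIZ1), were split. Of 9 genes, 5 were called higher and 4 lower, with a median of 0.10, and none passed the test against 0.5. Over all genes tested, 29.2% were called higher and 29.9% lower, and 12.2% passed the test against 0.5. ZBTB17 and SAP30 were lower by -0.28 and -0.26, and without shCtrl replicate 1 SAP30 was at -0.14. SAP130, HDAC1 and SIN3B were higher by 0.27, 0.19 and 0.17. The call of SIN3B was lost at 0.13 without shCtrl replicate 3 and at 0.12 without shRBM39 replicate 2, and those of SIN3B and HDAC1 under library totals alone, at 0.05 and 0.07. Under library totals alone 1 gene was called higher and 4 lower, with a median of -0.03. The median of all genes tested was then -0.14, against -0.01 with TMM factors, so the list's median stayed above it. Of 9 partners of MGA in its Polycomb complex, 4 were called higher and 2 lower, with a median of 0.18 that came to 0.06 under library totals alone with the same counts. L3MBTL2, CBX3 and TFDP1 were higher by 0.57, 0.55 and 0.41, and YAF2 and RYBP, alternative subunits for the same position, were lower by -0.31 and -0.26. YAF2 lost its call once counts were corrected for GC content and length, at -0.17.

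Of 18 genes that act on the MYC protein, 8 were called higher and 7 lower, with a median of 0.08. All genes tested also went both ways, with 29.2% called higher and 29.9% lower. AURKA, a kinase that stabilises MYC family proteins, was higher at 74.3 ± 1.88 against 39.5 ± 2.07 CPM (SD, n = 3), with a log2 fold change of 0.91. SKP2, a ubiquitin ligase subunit, and CIP2A, an inhibitor of the phosphatase that destabilises MYC, were higher by 0.84 and 0.64. FBXW7, the substrate receptor that directs MYC to degradation, was lower by -0.41, the deubiquitinase gene USP37 by -0.71 and the scaffold gene AXIN1 by -0.64. Under library totals alone the median of this list was -0.04, where that of all genes tested was -0.14. Among 12 proteins that bind MYC RNA or its promoter, 8 were called higher (66.7%) and 2 lower (16.7%), with a median of 0.41. The shares over all genes tested were 29.2% and 29.9%. IGF2BP1, which protects MYC mRNA from decay, was higher at 110.2 ± 4.23 against 72.3 ± 2.61 CPM (SD, n = 3), with a log2 fold change of 0.61. Its relatives IGF2BP2 and IGF2BP3 were the 2 lower genes, at -0.45 and -0.51, while NCL and PTBP1 were higher by 0.60 and 0.57.

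Genes that MYC is known to activate were mostly higher in shRBM39, although MYC mRNA was lower. Of 70 such genes, 54 were called higher (77.1%) and 3 lower (4.29%), where 29.2% and 29.9% of all genes tested were. The median log2 fold change was 0.29 against -0.01 over all genes tested. UNG, which removes uracil from DNA, rose from 19.99 ± 1.95 to 58.2 ± 1.44 CPM (SD, n = 3), with a log2 fold change of 1.54 with an edgeR adjusted p of 9.59e-22. MCM5, a subunit of the replicative helicase, and HSPE1, a mitochondrial chaperonin, rose by 1.34 and 1.22. HK2, the first enzyme of glycolysis, was lower at 56.4 ± 0.744 against 118 ± 1.28 CPM (SD, n = 3), with a log2 fold change of -1.06 with an edgeR adjusted p of 3.75e-21. SHMT2, of mitochondrial serine and glycine metabolism, was lower by -0.79. PRMT3 was lower by -0.17, a call lost at -0.11 without shCtrl replicate 1, at -0.14 without shRBM39 replicate 1 and at -0.16 with DESeq2. Against a log2 fold change of 0.5, 12 targets were called higher and 2 lower, where 5.65% and 6.58% of all genes tested were. With library totals alone the split was 44 higher and 3 lower and the median 0.16, and on log2 RPKM it was 40 and 3. Library totals alone put the median of all genes tested at -0.14.

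Genes that MYC is known to repress were mixed, with 3 of 10 called higher, 4 lower and a median of -0.27. Over all genes tested, 29.2% were called higher and 29.9% lower, so a mix by itself did not set this list apart. The 3 higher genes were KLF6 at 0.23 and, outside the rule for named genes and chosen after their values were seen, CDKN1A at 0.53 and NDRG2 at 0.72, and none of the 3 was called with DESeq2. KLF6 also lost its call at 0.18 without shCtrl replicate 3 and at 0.19 without shRBM39 replicate 2. Lower were CDKN2B, a cell cycle inhibitor, at 30.1 ± 3.33 against 73.3 ± 1.72 CPM (SD, n = 3, log2 fold change -1.29), NDRG1 at -1.32 and GADD45A at -0.69. CDKN1B, named after its value was seen, was lower by -0.44. Of 8 genes that MLX dimers are known to activate, 7 could be tested, with a median of -0.39. Of these 7, 2 were called higher (28.6%) and 4 lower (57.1%), beside 29.2% and 29.9% over all genes tested. TXNIP and its relative ARRDC4, both arrestin family genes that limit glucose uptake, fell from 161 ± 8.37 to 75.1 ± 4.67 CPM and from 25.4 ± 0.789 to 14.2 ± 0.152 CPM (SD, n = 3), with log2 fold changes of -1.10 and -0.84. G0S2, an inhibitor of triglyceride lipolysis, was lower by -2.17, and FASN, which makes fatty acids, was higher by 0.56.

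**Figure D5:**
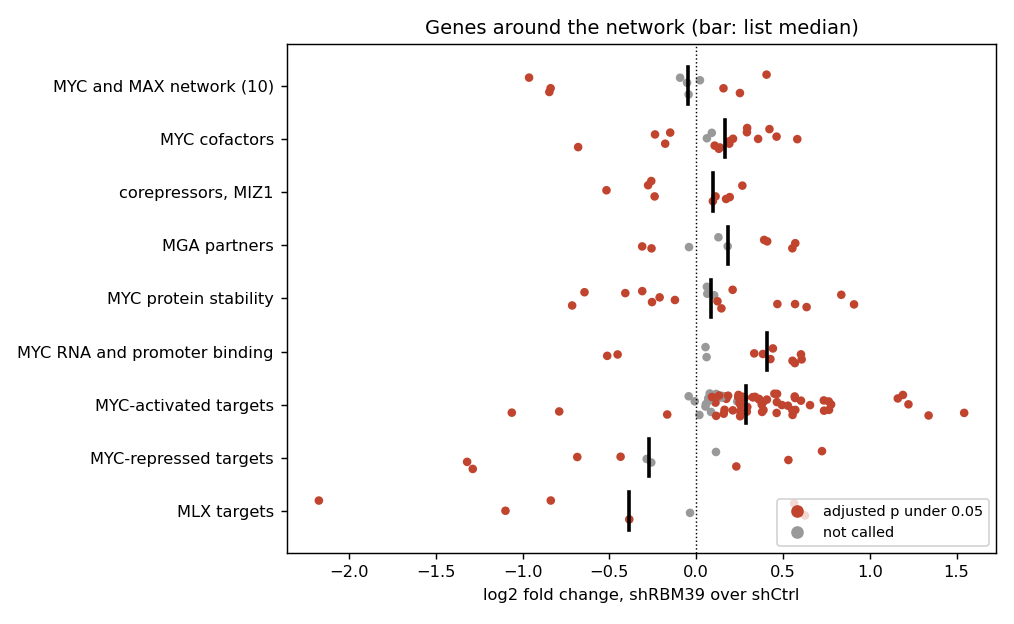
Log2 fold change of shRBM39 over shCtrl for each tested gene of the network (top row) and of 8 lists of genes around it, red where the adjusted p was under 0.05 in edgeR, with the black bar at the list's median. The MYC-activated targets lie mostly to the right of 0 (54 higher, 3 lower), and the MLX targets and MYC-repressed targets have medians of -0.39 and -0.27.

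The E-box, the site that MYC, MXD, MNT and MLX dimers with their partners bind in its canonical form CACGTG, was looked up in RefSeq promoters (250 bases before to 50 after a start, GRCh38.p14; the motif reads the same on both strands). It stood in 7.26% of 35116 promoters and in at least 1 promoter of 12.5% of the 10702 tested genes that have one in the table. Of the 9 members with a promoter there, MXD4, MNT and MLX held it. Each is shown with 10 bases on either side and the motif in capitals, since these 3 are the members found with it. MXD4 was called lower at -0.84, MNT was not called at -0.09, and MLX was called higher at 0.41. The windows lie at chr4:2262332-2262357 (minus strand), chr17:2401238-2401263 (minus strand) and chr17:42567040-42567065 (plus strand), with the first base of the motif 238, 193 and 50 bases before the start.
MXD4: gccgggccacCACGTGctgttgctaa
MNT: ctgcccgggcCACGTGtgcgcgcgcc
MLX: gggcgcgggtCACGTGggcacgccac

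The MYC-activated targets held the motif more often than tested genes at large. At least 1 promoter had it in 31 of the 58 targets with a promoter in the table (53.4%), against 12.5% of tested genes. Their median log2 fold change was 0.33 with the motif, with 25 of 31 called higher, and 0.27 without it, with 20 of 27 called higher. Over all genes tested, 29.2% were called higher. A match is a description of the sequence and not a bound site.

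Of the genes listed around the network and the members, 13 of 164 had 15 splicing records, 13 of them skipped exons and 2 mutually exclusive exons. The share of all genes with a record was not computed, so this count does not set the listed genes apart. In 9 of the 15, the MAX exon among them, no library had fewer than 20 reads. HNRNPD, whose protein (AUF1) binds AU-rich mRNA, had the deepest record, an exon of 57 bases with mean inclusion levels of 0.843 ± 0.0111 in group 1 and 0.743 ± 0.0111 in group 2 (SD, n = 3), the same direction as the MAX exon. BRD8, a subunit of the TIP60 acetyltransferase complex, had 2 records in the opposite direction, with differences of -0.27 and -0.32. MLXIPL had a record in which at most 5 reads skipped the exon in any library, and its groups overlapped.

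The genes whose log2 CPM followed MYC most closely over the 6 libraries, among 7103 with a mean of at least 20 CPM, were NOTUM, BMPR2 and BCAS3, with Pearson r of 0.9997, 0.9992 and 0.9989. NOTUM, a secreted Wnt inhibitor, was lower by -0.39, the BMP receptor gene BMPR2 by -0.95 and BCAS3 by -0.72. The 6 points share the libraries and fall into the 2 groups, so r mostly restates the group difference and is given as a description.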

How the data were processed

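The study sequenced mRNA of SW480 cells in 6 libraries, whose titles gave the groups. Columns named NC were taken to be shCtrl, since the series has no other control. Raw counts for each gene symbol on GRCh38 were deposited by the authors, with the exons of each symbol merged, as were RPKM values, which were recomputed from the counts and the exon lengths in that table. The submitters' processing notes name Trimmomatic 0.36, STAR 2.5.3a, featureCounts of Subread 1.5.1 and edgeR 3.12.1, with no roles. Strand setting, multi-mapped reads and the collapsing of unique identifiers are not given in the sources used here, and these affect overlapping genes and paralogs most. The authors also deposited a tally of splicing events and rMATS records (version not given in the sources used here) with reads, inclusion levels, p-values, FDR and group differences. The last 3 hold the authors' own comparison and were not used. Inclusion levels were recomputed from reads and effective lengths to within 0.0005.

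Counts were tested on all genes with edgeR 4.0.16 in R 4.3.3 (filterByExpr, TMM, a quasi-likelihood fit on group alone, Benjamini-Hochberg at 0.05), after a test on simulated counts. Standard errors came from the log2 fold change and its F statistic. Alternatives were DESeq2 1.42.0, other scalings and filters, limma 3.58.1 on log2(RPKM + 1) and log2(RPKM + 0.1), a correction for GC content and gene length, the replicate block, libraries left out, a threshold of 0.01 and a fold change tested against 0.5 on the log2 scale. The members and lists were chosen with earlier results of these data known. Named in each list were the 3 highest and 3 lowest called genes with at least 5 CPM and no overlap, and 2 genes that this rule gives are not reported here. CIP2A stands in the table as KIAA1524. Coordinates are those of the count table. Promoters came from RefSeq, and exon sequence from the hg38 genome with GENCODE v44.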

Additional observations from a re-analysis of the deposited data

How the results depend on the processing

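MYC, MXD4, MXI1, MLX, MYCN, MYCL and MLXIPL kept their direction under all alternatives, and all but MLX, which was not called against 0.5, also kept their call. MXD1, not called, turned to -0.011 under upper-quartile scaling, -0.10 under library totals alone, -0.078 on log2(RPKM + 1) and -0.10 on log2(RPKM + 0.1), and ran from -0.024 to 0.082 with 1 library left out. MLXIP turned to 0.070 with counts corrected for GC content and length. MNT was also called under upper-quartile scaling, at -0.13. Of the calls over all genes, 49.4% were higher, against 33.9% under library totals alone and 33.6% in both fits on log2 RPKM, and log2(RPKM + 0.1) moved the median of all genes by -0.11. The cause was not tested. The test against 0.5, which asks for a larger change by construction, called 2232 genes in all, 12.2% of those tested. It called 3 of 10 members, 2 of 18 cofactors, 0 of 9 corepressors, 0 of 9 MGA partners and 5 of 18 protein stability genes. It also called 2 of 12 RNA-binding genes, 14 of 70 activated targets, 3 of 10 repressed targets and 3 of 7 MLX targets. Under library totals alone and in both fits on log2 RPKM, 10 of 18 cofactors and 5 of 9 corepressors were called. Of all 18243 genes tested, 3775 were called higher and 7371 lower under library totals alone. Of the repressed targets, 4 were called with DESeq2 and 4 at an adjusted p under 0.01. With 1 library left out, 5 to 6 members and 10138 to 10263 genes in all were called. Libraries with the same replicate number did not deviate together (correlations of 0.006, -0.028 and 0). This cannot show whether they were prepared in pairs. With the replicate block 6 members and 10810 genes were called, and no call of a gene named by the rule changed. With TMM factors applied to RPKM, MYC in shRBM39 was at 58.7 and MAX at 36.2 in shCtrl and 35.1 in shRBM39. MAX inclusion without the correction for length was 0.486 in group 1 and 0.355 in group 2. The counts of MYCN, 15 to 62 per library, give a wide interval.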
